A study of Homo sapiens with 24 samples.

Results

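The genes described here are 10: the aldo-keto reductases AKR1C1, AKR1C2, AKR1C3 and AKR1B10, and 6 genes known as targets of the transcription factor NRF2, namely NQO1, GCLM, GCLC, TXNRD1, SRXN1 and HMOX1. They were chosen by their measured levels in the labelled lines against the control line, known from earlier results of these data, and every array probe annotated to 1 of them was taken. They are 10 of the 20046 genes named on the array and hold 19 of its 47323 probes. Of the 10, 9 were among the 12141 genes tested. AKR1C1 was not, because its single probe was below background on all 24 arrays.

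RNA was measured on Illumina bead arrays in SW480, a cell line from a human colon cancer. All 4 lines carried a stably integrated pBABE-puro retrovirus, in 3 of them with an inserted gene that gives the line its label (BOP1, CKS2 or NFIL3), and the fourth was the control. The labels do not say whether a line is 1 clone or a pool of infected cells. Every group had 24 h of treatment and 2 arrays. The BOP1-labelled line received the PI3 kinase inhibitor LY294002 at 3.3 µM, the JNK inhibitor SP600125 at 33.3 nM, the gamma-secretase inhibitor DAPT at 667 nM, or the solvent DMSO. The CKS2-labelled line received LY294002 at 3.3 µM, the p38 inhibitor SB203580 at 3.3 µM, or DMSO. The NFIL3-labelled line received LY294002 at 3.3 µM, SB203580 at 3.3 µM, the mTOR inhibitor Rapamycin at 33.3 nM, or DMSO. The control line had DMSO alone, so no inhibitor was tested in it.

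The transcripts named in the labels were not higher in their own lines. BOP1 averaged 12.89 on the log2 scale in its line and 13.45 in the control line (difference -0.56, limma adjusted p = 0.00187). The CKS2 probes differed by -0.13 and -0.43, and the NFIL3 probe by 0.00. The positions of these probes relative to the viral inserts were not used here, so a probe outside an insert would not check it, and the lines are called by their labels throughout. Mean raw signal ran from 970.8 to 1366 per array and 38% to 42.17% of probes were detected, meaning a detection p under 0.01. A probe is called below background where its detection p was 0.01 or more, even if it missed the limit narrowly. The median raw signal was 126.4 to 141 on DMSO arrays, 115.1 to 123.1 with LY294002, 105.9 to 116.8 with SB203580 and 111 with Rapamycin, before normalization between arrays. Of 10 colon epithelial markers, 6 were detected on all arrays (CDH1, CDX2, EPCAM, KRT8, KRT18 and KRT19) and 3 on none (CEACAM5, LGR5 and VIL1). PTPRC, PECAM1 and PDGFRA, defining markers of leukocytes, endothelium and fibroblasts, were below background on every array. CD68 of the leukocyte list, COL1A1 of the fibroblast list and ALB and SERPINA1 of the hepatocyte list were detected on all arrays. Of 7 leukocyte markers on the array 4 were detected on none, of 8 fibroblast markers 6, of 7 endothelial markers 6 and of 7 hepatocyte markers 4. Their summed raw signals ran from 882.4 to 1164, 736.7 to 1175, 564.8 to 787.6 and 931.6 to 1213 over the arrays, against 47190 to 82860 for the colon epithelial list.

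NRF2 is a transcription factor that the adaptor KEAP1 marks for destruction in unstressed cells. Oxidants and electrophiles that modify KEAP1 let NRF2 accumulate, pair with small MAF proteins and bind antioxidant response elements in genes for glutathione synthesis, thioredoxin and quinone reduction and haem breakdown. Human AKR1C and AKR1B10 genes are known to respond to the same factor, and their enzymes reduce steroids, prostaglandins, retinal and reactive aldehydes with NADPH.

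Promoter windows were searched for the core letters of that element, TGACNNNGC on either strand, to show which members carry them. The windows run from 250 bases before to 50 bases after a RefSeq transcription start (GRCh38.p14), and 10 windows of 8 of the 10 genes matched. The core was found in 3 of the 10 windows, 1 of GCLM and 2 of TXNRD1, against 13.3% of the 35116 promoters in the table. Both genes are shown because the GCLM level moved with inhibitors while the TXNRD1 level moved little. Each is written in the direction of its gene, with the core in capitals.
GCLM, chr1:93909381-93909680, minus strand: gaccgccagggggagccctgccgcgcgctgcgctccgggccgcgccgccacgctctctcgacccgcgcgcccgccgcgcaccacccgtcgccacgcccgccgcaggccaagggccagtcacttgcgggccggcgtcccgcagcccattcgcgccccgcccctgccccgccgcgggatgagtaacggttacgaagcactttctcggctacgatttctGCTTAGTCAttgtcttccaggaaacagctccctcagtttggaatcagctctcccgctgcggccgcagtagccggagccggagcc
TXNRD1, chr12:104215529-104215828, plus strand: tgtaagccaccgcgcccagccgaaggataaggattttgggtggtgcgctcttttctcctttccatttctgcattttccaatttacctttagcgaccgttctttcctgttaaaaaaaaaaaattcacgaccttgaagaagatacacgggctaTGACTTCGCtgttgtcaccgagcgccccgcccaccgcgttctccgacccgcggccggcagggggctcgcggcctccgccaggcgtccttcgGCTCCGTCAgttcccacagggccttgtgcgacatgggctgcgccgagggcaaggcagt
TXNRD1, chr12:104286782-104287081, plus strand: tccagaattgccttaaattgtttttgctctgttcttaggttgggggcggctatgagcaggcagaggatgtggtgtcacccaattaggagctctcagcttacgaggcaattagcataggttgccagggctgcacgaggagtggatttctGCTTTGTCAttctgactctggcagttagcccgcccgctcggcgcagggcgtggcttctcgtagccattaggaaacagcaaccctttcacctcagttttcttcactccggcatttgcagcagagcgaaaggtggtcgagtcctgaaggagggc
The GCLM match begins 34 bases before the start and reads TGACTAAGC on the opposite strand. The first TXNRD1 window holds TGACTTCGC 99 bases before the start and, on the opposite strand, TGACGGAGC 8 bases before it, and the second holds TGACAAAGC 102 bases before the start on the opposite strand. The windows of AKR1C1, AKR1C2, AKR1C3, NQO1, GCLC and SRXN1 did not hold these letters. The AP-1 letters TGANTCA, which overlap the core where its free bases are TCA, were in 0 of the 10 windows and in 7.71% of all promoters. A match is a description of the letters in a window, and no match says nothing of elements elsewhere.

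Levels are normalized log2 signals, and since probes differ in brightness, no level is compared between genes. AKR1C2, AKR1C3 and AKR1B10 were dim, detected on 11, 22 and 12 of 24 arrays. The other 6 tested genes were detected on all 24. In GRCh38.p14, AKR1C1 lies on chromosome 10 at 4963415 to 4983283, AKR1C2 at 4987775 to 5018000 and AKR1C3 at 5048781 to 5107686. AKR1B10 is on chromosome 7 (134527567 to 134541412), NQO1 on chromosome 16 (69709401 to 69726560), GCLM on chromosome 1 (93885199 to 93909430) and GCLC on chromosome 6 (53497341 to 53545101). TXNRD1 is on chromosome 12 (104215779 to 104350307), SRXN1 on chromosome 20 (646615 to 653200) and HMOX1 on chromosome 22 (35381096 to 35394207). The AKR1C genes are similar in sequence. The probe sequences were not used here, so cross-binding within the AKR1C family was not tested, and 5 of the 6 AKR1C2 probes were below background on every array.

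**Figure D1:**
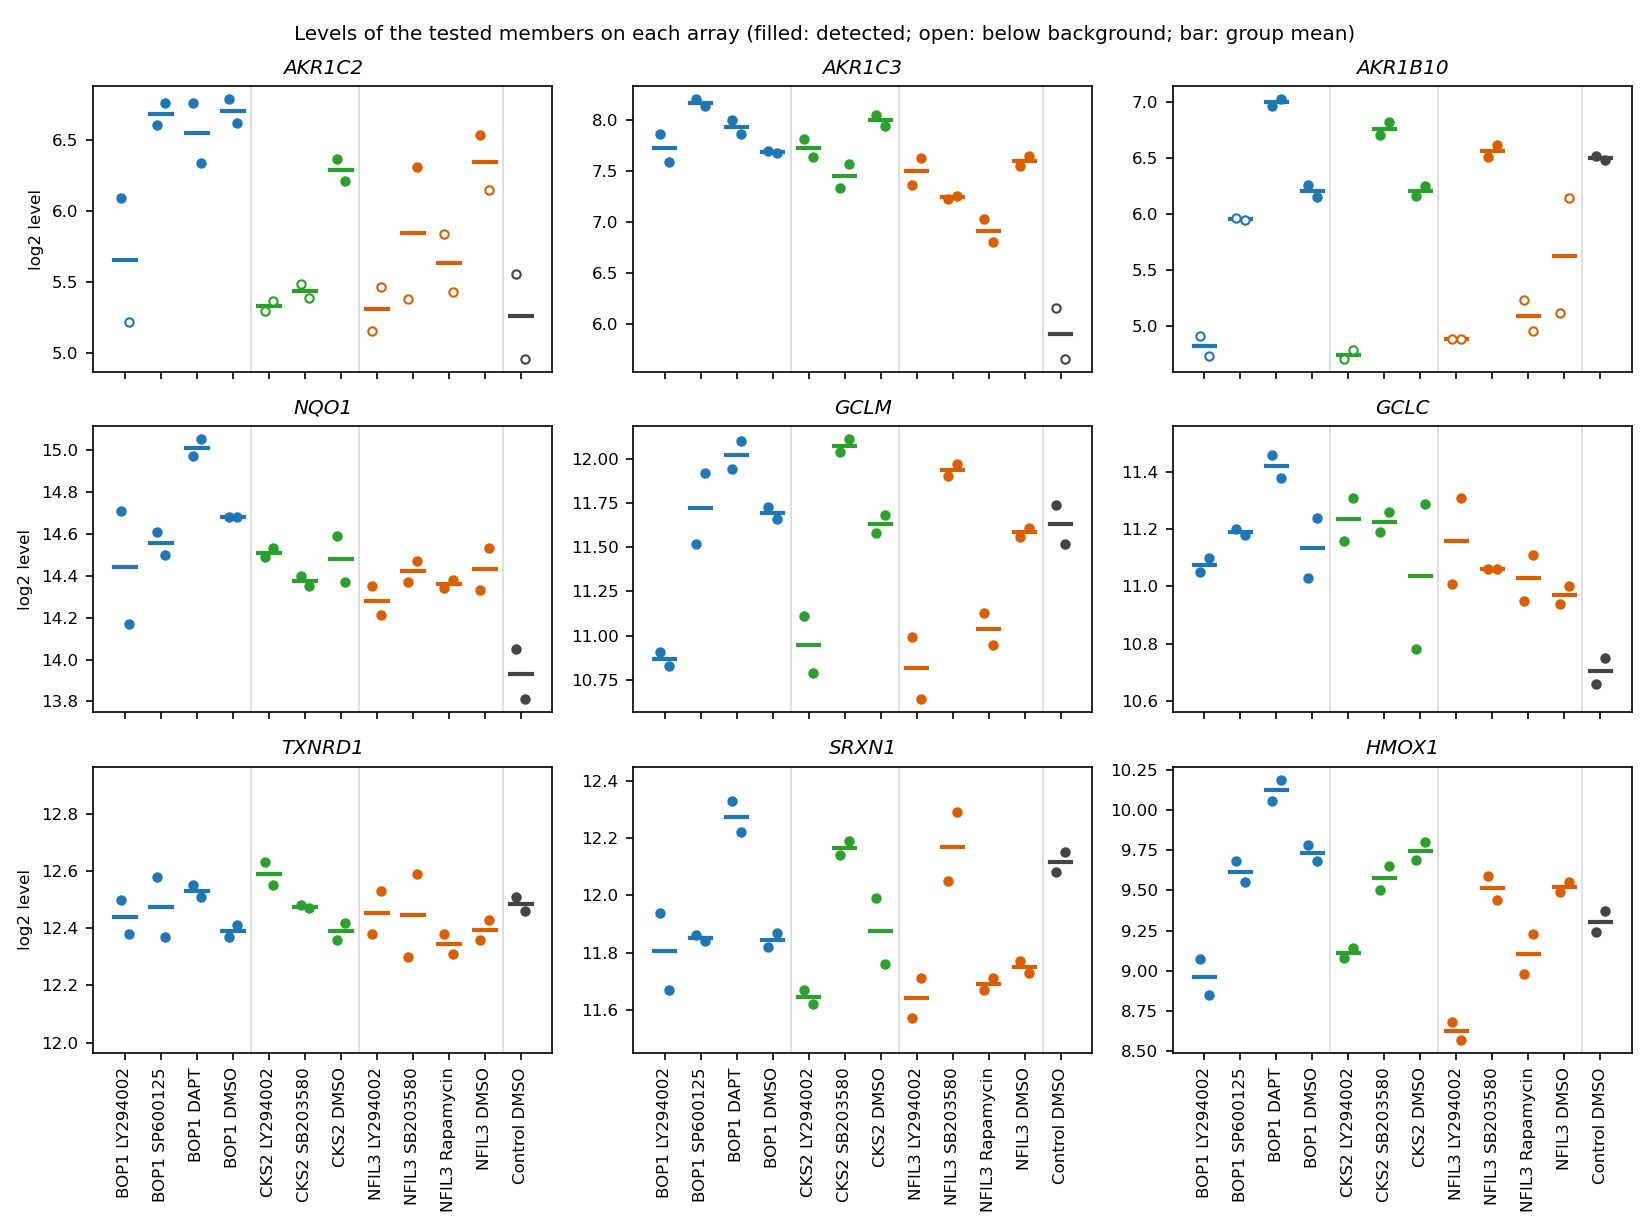
Log2 level of the 9 tested genes on each of the 24 arrays, by group (filled points, detected; open points, below background; bars, group means of 2 arrays). AKR1C3 is low on both control arrays, while AKR1B10, GCLM and HMOX1 are low with LY294002 in all 3 labelled lines.

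The lines in DMSO differed from the control line mainly in AKR1C3, AKR1C2 and NQO1. This is the contrast in which the genes had already been seen to differ, so it is described and not tested. AKR1C3, which reduces prostaglandins and steroids, stood at 7.70 and 7.68 in the BOP1-labelled line, 8.05 and 7.95 in the CKS2-labelled line and 7.55 and 7.65 in the NFIL3-labelled line, against 6.16 and 5.66 in the control line. All 6 arrays of the labelled lines were above both control arrays, on which the probe was below background. AKR1C2, a close relative that inactivates dihydrotestosterone, had 6.79 and 6.62 in the BOP1-labelled line, 6.37 and 6.21 in the CKS2-labelled line and 6.54 and 6.15 in the NFIL3-labelled line, against 5.56 and 4.96 in the control line. In bulk RNA, more cells expressing a gene and more RNA in each cell cannot be told apart. The groups again did not overlap, and the AKR1C2 probe was detected on 2, 2 and 1 arrays of the labelled lines and on 0 control arrays. The bound for AKR1C2 was a level at least 1.37-fold higher for the BOP1 label, at least 1.02-fold for CKS2 and at least 1.07-fold for NFIL3, from mean levels of 6.71, 6.29 and 6.35 against 5.26.

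NQO1, the quinone reductase most often used as a readout of NRF2, had 14.68 and 14.68, 14.59 and 14.37, and 14.33 and 14.53 in the lines labelled BOP1, CKS2 and NFIL3, against 14.05 and 13.81 in the control line. The differences were 0.75, 0.55 and 0.50 on the log2 scale (SE 0.14 each), and those of its second probe 0.93, 0.76 and 0.68 (SE 0.25 each). No control array reached any array of the labelled lines. GCLC, the catalytic subunit of the enzyme that starts glutathione synthesis, differed by 0.43, 0.33 and 0.26, and HMOX1, haem oxygenase 1, by 0.43, 0.44 and 0.22. HMOX1 had 9.78 and 9.68, 9.69 and 9.80, and 9.49 and 9.55 in the same lines, against 9.24 and 9.37 in the control line, again without overlap.

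For the other 4 tested members the direction was mixed or lower. GCLM, the modifier subunit that pairs with GCLC, differed by 0.06, 0.00 and -0.05 on its bright probe (SE 0.14), and by 0.65, 0.82 and 0.39 on its dim one (SE 0.30), so that its probes disagreed. TXNRD1, thioredoxin reductase, differed by -0.10 in each line on one probe (SE 0.10) and by 0.14, 0.24 and -0.02 on the other (SE 0.14), and these probes disagreed as well. SRXN1, which repairs over-oxidized peroxiredoxins, had differences of -0.28, -0.24 and -0.37. AKR1B10, which reduces retinal and aldehydes, had 6.26 and 6.15, 6.16 and 6.25, and 5.11 and 6.14 in the lines labelled BOP1, CKS2 and NFIL3, against 6.52 and 6.48 in the control line. It lay below both control arrays on all 6 arrays, and in the NFIL3-labelled line, where neither array detected it, it was at least 1.37-fold lower.

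With limma's adjusted p under 0.05 as the call, 5, 4 and 5 of the 9 tested members were called in the lines labelled BOP1, CKS2 and NFIL3, where 13.4%, 13.7% and 14.1% of all genes were called. Since these values were known when the genes were chosen, nothing is read from the counts. The median difference was 0.43, 0.33 and 0.22 over the 9 members, and 0.01 over all genes in each line. All 3 comparisons use the same 2 control arrays. Over the 3 lines there were 14 calls with all arrays, 9 without the first control array, 6 without the second and 9 without NFIL3-labelled DMSO replicate 1.

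**Figure D2:**
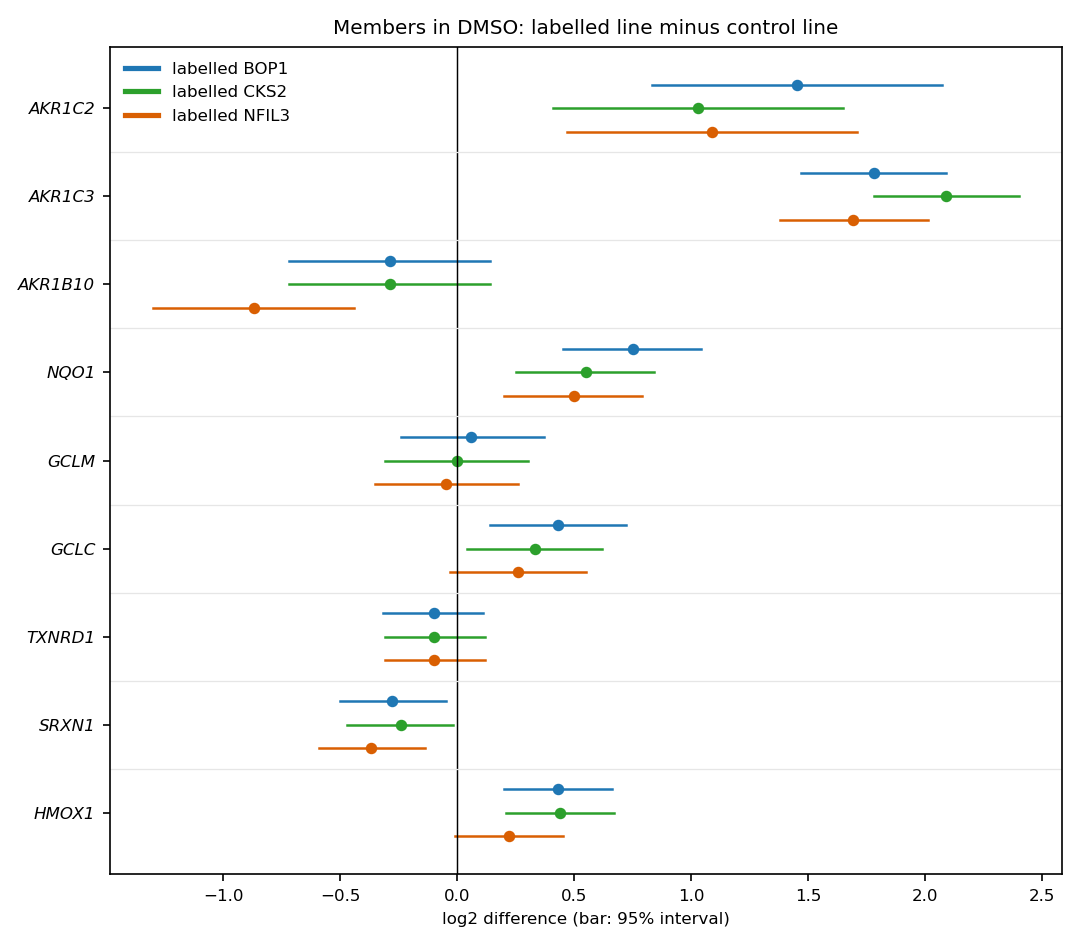
Log2 difference of the 9 tested genes between each labelled line and the control line, both in DMSO (points, mean difference; bars, 95% interval; 2 arrays per group). AKR1C2, AKR1C3, NQO1, GCLC and HMOX1 lie to the right of 0 in all 3 lines, SRXN1 and AKR1B10 to the left, and GCLM and TXNRD1 near 0.

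Between the labelled lines in DMSO, 0 of the 9 members were called in any of the 3 comparisons, in which 0.00824%, 0.00824% and 0% of genes were called. At an unadjusted p under 0.05 limma counted 0 of 9 for BOP1 against CKS2, 1 for BOP1 against NFIL3 and 2 for CKS2 against NFIL3, where 3.58%, 7.68% and 6.53% of all genes had such a p. AKR1B10 averaged 6.21 and 6.20 in the lines labelled BOP1 and CKS2, against 5.63 in the NFIL3-labelled line (adjusted p = 0.544 and 0.708). It was below background on both arrays of the NFIL3-labelled line. AKR1C3 was 0.40 higher in the CKS2-labelled than in the NFIL3-labelled line (adjusted p = 0.708). Those NFIL3-labelled arrays stood at 5.11 and 6.14 for AKR1B10, and without the second of them both AKR1B10 differences were called (adjusted p = 0.00228 and 0.00236).

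AKR1B10, GCLM, HMOX1 and AKR1C2 were called lower with LY294002 in each of the 3 labelled lines. That is 4 of 9 members lower and 0 higher in every line, where 11.2%, 13.9% and 13.8% of genes were called lower in the lines labelled BOP1, CKS2 and NFIL3 (21.6%, 25.6% and 25.9% in either direction). AKR1C3, NQO1, GCLC, TXNRD1 and SRXN1 were not called in any of the 3 lines. The AKR1C2 calls, and those of AKR1B10 and GCLM in the NFIL3-labelled line, were lost under alternatives given below. The median difference over the 9 was -0.24, -0.27 and -0.15, against -0.02, -0.02 and -0.03 over all genes. The labelled lines' DMSO arrays, the baseline here, also entered the contrast by which the genes were chosen, so that a fall of a gene chosen as high in them, such as AKR1C2 or HMOX1, is partly set by the choice. Of 7 colon epithelial markers tested, 1, 2 and 2 were called with LY294002, with list medians of -0.07, -0.12 and -0.01: KRT20 fell (-1.56, -1.32 and -1.52, adjusted p = 0.00284, 0.00649 and 0.00246), KRT18 fell in the NFIL3-labelled line (-0.41) and KRT8 rose in the CKS2-labelled line (0.44, adjusted p = 0.0167). Of 3 hepatocyte markers tested 2 rose in each line, ALB (0.63, 0.51 and 0.86) and TF, and of 3 leukocyte markers CD68 rose in the NFIL3-labelled line (0.97). Their part in the members' values was not tested.

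HMOX1, whose enzyme opens the haem ring to release iron, carbon monoxide and biliverdin, had 9.07 and 8.85 with LY294002 in the BOP1-labelled line, against 9.78 and 9.68 in DMSO. In the CKS2-labelled line it had 9.08 and 9.14 with LY294002, against 9.69 and 9.80 in DMSO. In the NFIL3-labelled line it had 8.68 and 8.57 with LY294002, against 9.49 and 9.55 in DMSO. No array with LY294002 reached a DMSO array of its line, and all 6 were also below both control arrays, at 9.24 and 9.37. The falls were 1.70-fold, 1.55-fold and 1.87-fold, or -0.77, -0.63 and -0.90 on the log2 scale (SE 0.11 each, adjusted p = 0.000238, 0.000699 and 5.97e-05).

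GCLM had 10.91 and 10.83 with LY294002 in the BOP1-labelled line, against 11.73 and 11.66 in DMSO. In the CKS2-labelled line it had 11.11 and 10.79, against 11.58 and 11.68 in DMSO, and in the NFIL3-labelled line 10.99 and 10.64, against 11.56 and 11.61 in DMSO. The arrays separated in each line, with falls of 1.78-fold, 1.60-fold and 1.71-fold (log2 -0.83, -0.68 and -0.77, SE 0.14 each, adjusted p = 0.000998, 0.0029 and 0.00111). The dim GCLM probe gave -0.76, -0.83 and -0.05 (SE 0.30, adjusted p over the 21608 probes kept = 0.0959, 0.0639 and 0.925). Its arrays in the NFIL3-labelled line, 6.56 and 6.80 with LY294002 against 7.32 and 6.15 in DMSO, overlapped, so that the probes of GCLM disagree there. With the mean of both probes the fall in that line was not called (adjusted p = 0.0547). GCLC, the partner subunit, differed by -0.06, 0.20 and 0.19 with LY294002 (SE 0.14), with 95% intervals of -0.35 to 0.23, -0.09 to 0.49 and -0.10 to 0.48.

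AKR1B10 had 4.91 and 4.73 with LY294002 in the BOP1-labelled line, against 6.26 and 6.15 in DMSO, and 4.70 and 4.78 in the CKS2-labelled line, against 6.16 and 6.25 in DMSO. It was below background on all arrays with LY294002 and detected on all 4 of those DMSO arrays. It was at least 1.15-fold and at least 1.19-fold lower with LY294002, with mean levels of 4.82 against 6.21 and 4.74 against 6.20 (adjusted p = 0.000301 and 0.000149). In the NFIL3-labelled line it had 4.88 and 4.88 with LY294002, against 5.11 and 6.14 in DMSO. All 4 of these arrays were below background, so no fold is given, and the call there (log2 -0.75, adjusted p = 0.0133) was lost without DMSO replicate 2 or without either LY294002 array, with adjusted p up to 0.223 over the alternatives.

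AKR1C2 had 6.09 and 5.22 with LY294002 in the BOP1-labelled line, against 6.79 and 6.62 in DMSO (log2 -1.05, adjusted p = 0.0176), and 1 of the 2 LY294002 arrays detected it. In the CKS2-labelled line it had 5.30 and 5.37, against 6.37 and 6.21 in DMSO, and in the NFIL3-labelled line 5.16 and 5.47, against 6.54 and 6.15 in DMSO. LY294002 arrays of these lines were all below background, which made AKR1C2 at least 1.27-fold and at least 1.30-fold lower, with mean levels of 5.34 against 6.29 and 5.32 against 6.35 (adjusted p = 0.025 and 0.0169). Each of the 3 calls was lost when single arrays were left out: the second LY294002 array or either DMSO array of the BOP1-labelled line, any of the 4 of the CKS2-labelled line, and the first LY294002 or first DMSO array of the NFIL3-labelled line, with adjusted p up to 0.192, 0.124 and 0.124.

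AKR1C3 had 7.87 and 7.59, 7.82 and 7.64, and 7.37 and 7.63 with LY294002 in the lines labelled BOP1, CKS2 and NFIL3, against 7.70 and 7.68, 8.05 and 7.95, and 7.55 and 7.65 in DMSO. The arrays overlapped in the lines labelled BOP1 and NFIL3 and not in the CKS2-labelled line. The differences were 0.04, -0.27 and -0.10 (SE 0.15), with 95% intervals of -0.27 to 0.36, -0.58 to 0.05 and -0.41 to 0.21. Differences of NQO1 were -0.24, 0.03 and -0.15 (SE 0.14), those of SRXN1 -0.04, -0.23 and -0.11 (SE 0.11), and those of TXNRD1 0.05, 0.20 and 0.06 (SE 0.10). The second TXNRD1 probe differed by -0.31, -0.34 and -0.24 (SE 0.14, adjusted p over the probes kept = 0.134, 0.0938 and 0.234), opposite in sign to the first, and neither was called. NQO1 in the BOP1-labelled line turned on 1 array: its LY294002 arrays stood at 14.71 and 14.17, and without the first of them the difference was -0.50 and was called (adjusted p = 0.0201).

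The effect of LY294002 was compared between lines in the same model. None of the 9 members was called in the 3 differences, in which 0%, 0.14% and 0.297% of genes were called, and 0, 1 and 1 members had an unadjusted p under 0.05 by limma. Over all genes 6.42%, 10.1% and 10.8% had such a p. In both cases the member was AKR1B10 (adjusted p = 0.463 and 0.347, and 0.0288 and 0.0131 without the second NFIL3-labelled DMSO array). Its LY294002 arrays in all lines and both NFIL3-labelled DMSO arrays were below background, so the effects end at the background and their difference has no measured size. GCLM's effects differed between lines by -0.15, -0.05 and 0.10 (SE 0.20).

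**Figure D3:**
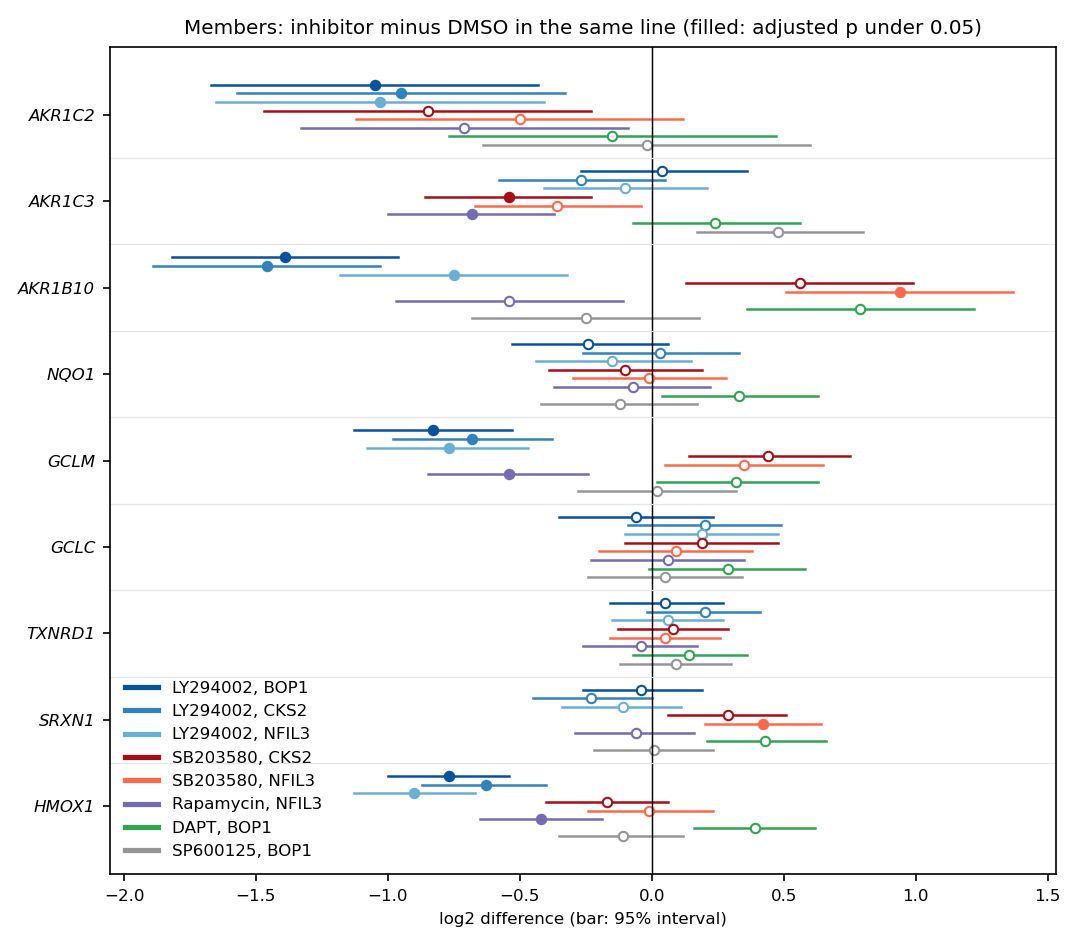
Log2 difference of the 9 tested genes between each inhibitor and DMSO in the same line (points, mean difference, filled where the adjusted p was under 0.05; bars, 95% interval; 2 arrays per group). AKR1C2, AKR1B10, GCLM and HMOX1 have filled points left of 0 for LY294002 in all 3 lines, and AKR1B10, GCLM and SRXN1 lie right of 0 for SB203580 and DAPT.

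SB203580 gave other calls: AKR1C3 fell in the CKS2-labelled line, while AKR1B10 and SRXN1 rose in the NFIL3-labelled line. That is 1 of 9 members in the first and 2 of 9 in the second, where 12.5% and 12.4% of genes were called (7.4% lower in the first, 4.56% higher in the second). The DMSO arrays, the baseline here too, also entered the contrast by which the genes were chosen. Changes from them, such as the fall of AKR1C3, are therefore partly set by the choice. AKR1B10 had 6.51 and 6.62 with SB203580 in the NFIL3-labelled line, against 5.11 and 6.14 in DMSO, where it was below background on both arrays. It was at least 1.43-fold higher, with mean levels of 6.56 against 5.63 (adjusted p = 0.00684). In the CKS2-labelled line it had 6.71 and 6.82, against 6.16 and 6.25 in DMSO (log2 0.56, adjusted p = 0.0834). SRXN1 had 12.05 and 12.29 with SB203580 in the NFIL3-labelled line, against 11.77 and 11.73 in DMSO (log2 0.42, SE 0.11, adjusted p = 0.0158). In the CKS2-labelled line it had 12.14 and 12.19, against 11.99 and 11.76 in DMSO (log2 0.29, adjusted p = 0.0853). The SB203580 arrays of both genes were above the DMSO arrays of their line in both lines.

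AKR1C3 had 7.34 and 7.57 with SB203580 in the CKS2-labelled line, against 8.05 and 7.95 in DMSO, a fall of 1.46-fold (log2 -0.54, SE 0.15, adjusted p = 0.0246). In the NFIL3-labelled line it had 7.23 and 7.26, against 7.55 and 7.65 in DMSO (log2 -0.36, adjusted p = 0.128). GCLM had 12.04 and 12.11 with SB203580 in the CKS2-labelled line, against 11.58 and 11.68 in DMSO (log2 0.44, adjusted p = 0.0522), and 11.90 and 11.97 in the NFIL3-labelled line, against 11.56 and 11.61 in DMSO (log2 0.35, adjusted p = 0.123). The dim GCLM probe averaged 7.68 with SB203580 against 7.16 in DMSO and 7.53 against 6.73 (log2 0.52 and 0.80, adjusted p over the probes kept = 0.305 and 0.11), and with the mean of both probes GCLM was called in each line (log2 0.48 and 0.57, adjusted p = 0.0466 and 0.0205). AKR1C2 was below background on both SB203580 arrays of the CKS2-labelled line and was not called there (means 5.44 against 6.29, adjusted p = 0.0665). In the NFIL3-labelled line 1 of 2 arrays detected it in each group. HMOX1 differed by -0.17 and -0.01 (SE 0.11) and NQO1 by -0.10 and -0.01 (SE 0.14). The second NQO1 probe averaged 8.34 with SB203580 against 8.23 in DMSO in the CKS2-labelled line. In the NFIL3-labelled line it had 8.46 and 8.80, against 8.12 and 8.18 in DMSO, without overlap, so that the NQO1 probes disagreed there. The calls rest on few arrays: that of AKR1C3 was lost without either CKS2-labelled DMSO array or SB203580 replicate 1, that of AKR1B10 without NFIL3-labelled DMSO replicate 1 or SB203580 replicate 2, and that of SRXN1 without either NFIL3-labelled DMSO array or SB203580 replicate 2. In the other direction, AKR1B10 in the CKS2-labelled line was called without either NFIL3-labelled DMSO array (adjusted p = 0.00235), with a log2 difference of 0.56 as before, and GCLM and AKR1C2 in that line were called under several alternatives (adjusted p from 0.0143 for GCLM and from 0.0103 for AKR1C2). Of the 3 leukocyte markers tested, CD68 rose with SB203580 (1.02 and 0.80, adjusted p = 0.00175 and 0.00909) and LYZ fell (adjusted p = 0.0236 and 0.00241, below background on all SB203580 arrays), with list medians of 0.12 and -0.98. Of 7 colon epithelial markers, CDH1 fell (-0.45 in each line), with list medians of -0.17 and -0.12. COL1A1, 1 of 2 fibroblast markers tested, fell (-0.55 and -0.71), and SERPINA1, 1 of 3 hepatocyte markers, rose (0.56 and 0.63). Their part in these values was not tested. The effect of SB203580 was not called as different between the 2 lines for any of the 9 members (0 at an unadjusted p under 0.05 by limma, where 3.87% of all genes had one and 0% were called).

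LY294002 and SB203580 were both given at 3.3 µM in the CKS2-labelled and NFIL3-labelled lines and were compared directly. LY294002 left 4 of 9 members lower than SB203580 did in each line, AKR1B10, GCLM, SRXN1 and HMOX1, and 0 higher, where 21.9% and 18.9% of genes were lower and 44% and 39.4% were called in all. GCLM was 2.18-fold lower in both lines (log2 -1.12, SE 0.14, adjusted p = 1.76e-05 and 2.15e-05), and its dim probe was lower as well (log2 -1.35 and -0.85, adjusted p over the probes kept = 0.00248 and 0.0403). AKR1B10 was at least 1.76-fold and at least 1.51-fold lower, with mean levels of 4.74 against 6.76 and 4.88 against 6.56 (adjusted p = 1.94e-06 and 1.36e-05). SRXN1 was lower by 1.43-fold and 1.45-fold (adjusted p = 0.000966 and 0.000884) and HMOX1 by 1.38-fold and 1.86-fold (adjusted p = 0.0027 and 1.47e-05). The arrays did not overlap in any of these 8 cases. AKR1C3 was 0.28 and 0.26 higher with LY294002 than with SB203580, which was not called (95% intervals -0.04 to 0.59 and -0.06 to 0.57). Other NRF2 targets, listed below, did not all go the way of the 4 members. Of 13 glutathione genes tested, 8 were called higher with LY294002 and 1 lower in the CKS2-labelled line, and 5 and 2 in the NFIL3-labelled line (list medians 0.47 and 0.22). Of 18 thioredoxin, quinone and other targets, 1 was higher and 5 lower, and 2 and 6 (list medians 0.01 and -0.14).

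Rapamycin, given to the NFIL3-labelled line only, lowered AKR1C3, GCLM and HMOX1. These are 3 of 9 members, where 4.09% of genes were called lower and 7.61% in either direction, and the median over the 9 was -0.42, against -0.02 over all genes. The DMSO arrays of this line also entered the contrast by which the genes were chosen. A fall of a gene chosen as high in them, such as AKR1C3, is therefore partly set by the choice. AKR1C3 had 7.03 and 6.81 with Rapamycin, against 7.55 and 7.65 in DMSO (1.61-fold lower, log2 -0.68, SE 0.15, adjusted p = 0.0138). GCLM had 11.13 and 10.95, against 11.56 and 11.61 in DMSO (log2 -0.54, SE 0.14, adjusted p = 0.0305), and HMOX1 had 8.98 and 9.23, against 9.49 and 9.55 in DMSO (log2 -0.42, SE 0.11, adjusted p = 0.0294). The arrays separated for all 3 genes. The dim GCLM probe averaged 6.47 with Rapamycin against 6.73 in DMSO (log2 -0.26, adjusted p over the probes kept = 0.662), and with the mean of both probes the GCLM call was lost. AKR1C2, below background on both Rapamycin arrays and on 1 of 2 in DMSO, was not called (means 5.64 against 6.35, adjusted p = 0.145). AKR1B10, below background on all 4 arrays, had 5.23 and 4.95 with Rapamycin, against 5.11 and 6.14 in DMSO (adjusted p = 0.116). With only the 4 arrays compared in the fit, 0 of 12141 genes were called, and single arrays also decided the calls. That of AKR1C3 was lost without either DMSO array or Rapamycin replicate 2, that of HMOX1 without either DMSO array or Rapamycin replicate 1, and that of GCLM without any of the 4 (adjusted p up to 0.112, 0.203 and 0.196). AKR1B10, below background throughout, was called without DMSO replicate 1 (adjusted p = 0.00287).

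Set against Rapamycin in the same line, at its own dose of 33.3 nM, LY294002 at 3.3 µM left AKR1C3 higher and HMOX1 lower, 2 of 9 members where 16.5% of genes were called. AKR1C3 had 7.37 and 7.63 with LY294002, against 7.03 and 6.81 with Rapamycin (log2 0.58, SE 0.15, adjusted p = 0.014). HMOX1 had 8.68 and 8.57, against 8.98 and 9.23 (log2 -0.48, SE 0.11, adjusted p = 0.0076). GCLM differed by -0.23 (95% interval -0.53 to 0.07). Both calls were lost without the second LY294002 or the second Rapamycin array.

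DAPT and SP600125, given to the BOP1-labelled line, changed 0 of 9 members by limma's adjusted p, where 0.00824% and 0% of all genes were called. At an unadjusted p under 0.05 the counts were 5 of 9 with DAPT and 1 of 9 with SP600125, where 12.6% and 11.7% of all genes had such a p. The 5 with DAPT all lay above DMSO. AKR1B10 had 6.97 and 7.03 with DAPT, against 6.26 and 6.15 in DMSO (log2 0.79, adjusted p = 0.136). SRXN1 had 12.33 and 12.22, against 11.82 and 11.87 (log2 0.43, adjusted p = 0.123), and HMOX1 had 10.06 and 10.19, against 9.78 and 9.68 (log2 0.39, adjusted p = 0.164). NQO1 had 14.97 and 15.05 with DAPT, against 14.68 and 14.68 (log2 0.33, adjusted p = 0.334), and GCLM had 11.94 and 12.10, against 11.73 and 11.66 (log2 0.32, adjusted p = 0.368), although its dim probe differed by -0.21. The DAPT arrays were above the DMSO arrays for each of the 5, and the median over the 9 members was 0.32, against 0.00 over all genes. The DMSO arrays of the BOP1-labelled line, the baseline here, also entered the contrast by which the genes were chosen. Sizes of changes from them are therefore partly set by the choice. AKR1B10 was called with DAPT when either NFIL3-labelled DMSO array was left out (adjusted p = 0.0101). With SP600125, AKR1C3 had 8.21 and 8.14, against 7.70 and 7.68 in DMSO (log2 0.48, adjusted p = 0.245).

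Across all 12 groups the members followed different orders. AKR1C3 was highest with SP600125 in the BOP1-labelled line (mean 8.17) and then in the CKS2-labelled line in DMSO (8.00), and the groups below them down to SB203580 in the CKS2-labelled line (7.45) lay close together, with neighbours whose arrays overlapped or whose means differed by less than the SE of 0.15. SB203580 (7.24) and Rapamycin (6.92) in the NFIL3-labelled line came next, 0.21 and 0.33 below the group above each, and the control line was last, below background on both arrays and so with no measured distance. AKR1B10 was highest with DAPT (7.00), followed by SB203580 in the CKS2-labelled and NFIL3-labelled lines (6.76 and 6.56), the control line (6.50) and the BOP1-labelled and CKS2-labelled lines in DMSO (6.21 and 6.20). The other 6 groups were SP600125, the NFIL3-labelled line in DMSO, Rapamycin and the 3 LY294002 groups. In them AKR1B10 was below background on both arrays, with means of 5.95 or less. With SP600125 it missed the detection limit narrowly, at 5.96 and 5.95 (detection p 0.0143 each). That is above the 4.91 and 4.73 with LY294002 in the same line. On its bright probe, GCLM was highest in the same 3 groups as AKR1B10 (12.07, 12.02 and 11.93) and lowest in the LY294002 groups and with Rapamycin (10.81 to 11.04), with a gap of 0.54 above them. Its dim probe was also highest with SB203580 (7.68 and 7.53), but with DAPT it was at 6.78, below BOP1-labelled DMSO (6.99). On that probe the control line (6.34) was below LY294002 in the NFIL3-labelled line (6.68). TXNRD1 spanned 0.24 over the group means, against 2.26 for AKR1C3 and AKR1B10, 1.50 for HMOX1, 1.45 for AKR1C2, 1.26 for GCLM, 1.08 for NQO1, 0.72 for GCLC and 0.64 for SRXN1. These spans rest on 1 probe per gene, and those of AKR1C3, AKR1B10 and AKR1C2 reach into the background. The second probes spanned 0.49 for TXNRD1, 1.57 for NQO1, 1.45 for GCLM and 1.23 for GCLC.

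Over the 12 group means, Pearson's r was 0.961 between AKR1B10 and GCLM, 0.907 between AKR1B10 and SRXN1, 0.871 between GCLM and HMOX1 and 0.825 between AKR1B10 and HMOX1. NQO1 and GCLC had r = 0.834 and AKR1C3 and NQO1 r = 0.764, while AKR1C3 and AKR1B10 had r = -0.0966. These are descriptions over groups that share lines and DMSO arrays, and AKR1B10 was below background in 6 of the 12. They use 1 probe per gene, for GCLM the bright one, whose order of groups the dim one did not share. Among all other genes, those most like AKR1B10 over the same 12 means were SAR1B (r = 0.977), UCHL5 (0.97), ASNS (0.967), PSMD12 (0.964) and GEMIN2 (0.962). Those most like AKR1C3 were DERA (0.923), CPT2 (0.913), TMEM50B (0.894), C15orf40 (0.891) and TBC1D19 (0.878).

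**Figure D4:**
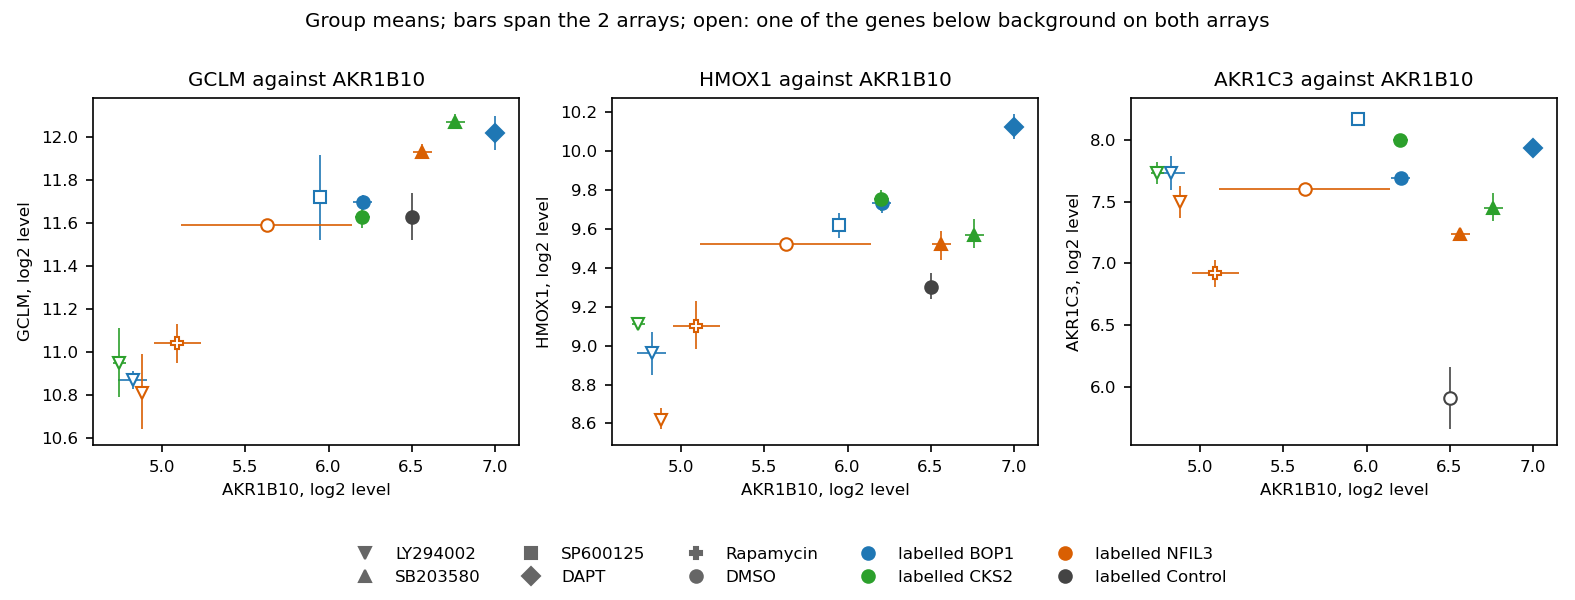
Group means of GCLM, HMOX1 and AKR1C3 against AKR1B10, in log2 level, over the 12 groups (symbols, treatment; colours, line; bars, the span of the 2 arrays; open symbols, one of the genes below background on both arrays). GCLM, by its bright probe, and HMOX1 are low where AKR1B10 is low, with LY294002 and Rapamycin, whereas AKR1C3 is lowest in the control line, where AKR1B10 is at 6.50.

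The regulators of the pathway were read from a list of 15 genes, of which 12 were tested. With LY294002 2, 3 and 1 of the 12 were called in the lines labelled BOP1, CKS2 and NFIL3, where 21.6%, 25.6% and 25.9% of all genes were called, and MAFF was the one with the smallest p in each. MAFF, a small MAF protein that pairs with NRF2, averaged 9.38, 9.34 and 9.09 with LY294002, against 8.55, 8.19 and 8.02 in DMSO (log2 0.83, 1.15 and 1.07, adjusted p = 0.000166, 9.97e-06 and 2.33e-05). It was also higher with Rapamycin (0.70, adjusted p = 0.00293) and with SB203580 in the NFIL3-labelled line (0.37, adjusted p = 0.0403). NFE2L1, a relative of NRF2, rose with LY294002 in the BOP1-labelled line (0.31, adjusted p = 0.0193) and fell with SB203580 in the CKS2-labelled line (-0.28, adjusted p = 0.0497). With LY294002 in the CKS2-labelled line, DPP3 rose (0.31, limma adjusted p = 0.0317) and NFE2L3 fell (-0.38, adjusted p = 0.0364). NFE2L2, which encodes NRF2 itself, had the smallest p of the list with DAPT, at 12.42 against 12.16 in DMSO (0.26, adjusted p = 0.221). Against the control line, 2, 0 and 0 were called in the lines labelled BOP1, CKS2 and NFIL3, where 13.4%, 13.7% and 14.1% of all genes were. The 2 were MAFF and the autophagy receptor SQSTM1 (0.57 and 0.40, adjusted p = 0.00403 and 0.0373). The list was chosen with earlier results of these data known, so nothing is read from these counts and p-values against control. The median over the list was within 0.14 of 0 in all of these comparisons.

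Other glutathione genes regulated by NRF2 were read from a list of 18, of which 13 were tested. In the labelled lines 6, 7 and 5 of the 13 were called against control, 6, 6 and 4 of them higher and 0, 1 and 1 lower, with list medians of 0.28, 0.33 and 0.37, where 13.4%, 13.7% and 14.1% of all genes were called. The list was chosen with results of this contrast known, so nothing is read from the count or from the p-values against control. The conjugate exporters ABCC2 (0.98, 1.24 and 0.97) and ABCC3 (1.31, 1.33 and 1.08) had the smallest p in each line (adjusted p up to 0.00019), and SLC7A11, the cystine importer, was lower in the NFIL3-labelled line (-0.95, adjusted p = 0.00817). With LY294002 3, 1 and 2 of the 13 rose and 2, 2 and 1 fell: ABCC3 rose (0.65, 0.76 and 0.80, adjusted p up to 0.00444) and GSR, which regenerates reduced glutathione, fell (-0.63, -0.55 and -0.58, adjusted p up to 0.0128). SB203580 lowered 3 of 13 in the CKS2-labelled and 5 in the NFIL3-labelled line and raised 1 in each. ABCC2 fell (-1.37 and -1.08, adjusted p = 8.52e-07 and 1.57e-05), and SLC7A11 rose (1.04 and 1.22, adjusted p = 0.00459 and 0.00149). Rapamycin raised 1 of the 13, ABCC3 (0.92, adjusted p = 0.00234). Over all genes, 21.6%, 25.6% and 25.9% were called with LY294002, 12.5% and 12.4% with SB203580 and 7.61% with Rapamycin.

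A list of 24 thioredoxin, quinone and other NRF2 target genes had 18 tested. With LY294002 5, 3 and 4 of the 18 fell and 1 rose in each line, where 11.2%, 13.9% and 13.8% of all genes fell and 21.6%, 25.6% and 25.9% were called, with medians of -0.19, -0.12 and -0.21. One that fell in the BOP1-labelled line, TRIM16, was below background on all 4 arrays. PIR, the iron-binding nuclear protein pirin, fell (-0.72, -0.60 and -0.56, adjusted p = 0.000154, 0.000434 and 0.000659), as did ME1, malic enzyme (-0.51, -0.52 and -0.43, adjusted p up to 0.0243). EPHX1, an epoxide hydrolase, rose (0.76, 0.71 and 0.44, adjusted p up to 0.00834). SB203580 lowered EPHX1 (-0.63 and -0.37, adjusted p = 0.00158 and 0.0355) and raised CBR3, a carbonyl reductase (0.52 and 0.59, adjusted p = 0.0288 and 0.0147), with 1 and 2 of the 18 higher and 2 and 1 lower. Rapamycin raised 1 and lowered 2 of the 18 (EPHX1 0.49, UGDH -0.43 and PIR -0.36). Over all genes, 12.5% and 12.4% were called with SB203580 and 7.61% with Rapamycin. Against control, 4, 4 and 2 of the 18 were called, 3, 3 and 2 of them higher and 1, 1 and 0 lower, where 13.4%, 13.7% and 14.1% of all genes were called. This list too was chosen with earlier results of these data known, so nothing is read from the counts and p-values against control. The lower one was TRIM16L (-1.80 and -1.82 in the lines labelled BOP1 and CKS2, adjusted p = 0.0187 and 0.0168), detected on 1 of 2 arrays in each of these lines and on both control arrays. The higher ones included EPHX1 (0.60, 0.51 and 0.38), the ferritin light chain FTL (0.38 and 0.41 in the lines labelled BOP1 and CKS2), and ALDH3A1, an aldehyde dehydrogenase that was below background on both control arrays and at least 1.22-fold higher for the BOP1 label, 1.30-fold for CKS2 and 1.23-fold for NFIL3.

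Of 9 genes listed for NADPH supply, 8 were tested, one of which, HDLBP, is an RNA-binding protein that was listed in error. Over all genes, 11.2%, 13.9% and 13.8% were called lower with LY294002 and 21.6%, 25.6% and 25.9% in either direction. LY294002 lowered 3, 2 and 3 of the 8 and raised 0, 1 and 1, the last being NADK, an NAD kinase, in the CKS2-labelled line (0.56, adjusted p = 0.0095) and HDLBP in the NFIL3-labelled line (0.54, adjusted p = 0.0497, but -0.11 with the mean of its probes). The lower ones were ME1, as above, MTHFD2, a mitochondrial folate enzyme (-0.53, -0.49 and -0.55, adjusted p up to 0.031), and in 2 lines the transketolase TKT (-0.38 and -0.31 in the lines labelled BOP1 and NFIL3). No gene of this list was called with any of the other inhibitors, where 12.5% and 12.4% of all genes were called with SB203580 and 7.61% with Rapamycin. MTHFD2 was 0.47 higher with SB203580 in both lines (adjusted p = 0.0621 and 0.0596). Against control, 1, 3 and 2 were called, where 13.4%, 13.7% and 14.1% of all genes were. Since this list was also chosen with earlier results of these data known, nothing is read from the counts and p-values against control. IDH1 was higher in each line (0.41, 0.47 and 0.47) and PGD in the CKS2-labelled line (0.27), while MTHFD2 was lower in the CKS2-labelled line (-0.49, adjusted p = 0.0473) and NADK in the NFIL3-labelled line (-0.45, adjusted p = 0.0471).

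Of 9 further aldo-keto reductases, 4 were tested. AKR1C4, known from liver, was below background on both control arrays and at least 1.70-fold higher for the BOP1 label, 1.82-fold for CKS2 and 1.49-fold for NFIL3, with mean levels of 7.02, 7.12 and 6.83 against 5.99. Whether its probe binds RNA of AKR1C3 was not tested, and this list too was chosen with earlier results of these data known. AKR7A3, an aflatoxin aldehyde reductase, rose with LY294002 in all 3 lines (0.58, 0.43 and 0.27, adjusted p = 0.000154, 0.00102 and 0.0178) and with Rapamycin (0.30, adjusted p = 0.0275). With LY294002 2, 2 and 3 of the 4 were called, where 21.6%, 25.6% and 25.9% of all genes were. Among them were AKR7A2, a succinic semialdehyde reductase (0.61 and 0.40 in the lines labelled BOP1 and NFIL3), and AKR1D1, a steroid reductase (0.74 in the NFIL3-labelled line, adjusted p = 0.00131). All were higher but AKR1C4 in the CKS2-labelled line, which had 6.42 with LY294002 against 7.12 in DMSO (-0.70, adjusted p = 0.0366).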

How the data were processed

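RNA from 24 cultures in 12 groups of 2 was measured on Illumina bead arrays. Per the labels' protocols, RNA was extracted with Trizol and RNeasy and labelled with a TotalPrep kit. Per the file headers, the deposited intensity of each probe is the authors' non-normalized signal. The authors deposited a detection p-value beside each intensity, and these come in units of 1/770. GenomeStudio 2010.1 and Partek are the tools named in the submitters' processing notes, and the deposited processed intensity values served as an alternative. The members and the gene lists were chosen with earlier results of these data known.

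Intensities were background-corrected, quantile-normalized and put on the log2 scale with neqc of limma 3.58.1 in R 4.3.3 (offset 16). A probe was kept with a detection p under 0.01 on at least 2 arrays, which left 21608 of 47323 probes. Of all probes, 30113 had 1 gene symbol in the platform annotation, 8 had several and 17202 had none, and each of the 12141 genes tested is represented by its probe of highest mean. One limma model with 12 groups (residual df 12, prior df 4.44) gave all comparisons, with Benjamini-Hochberg adjusted p over 12141 genes, or over the 21608 kept probes for second probes and for the introduced genes. A call is an adjusted p under 0.05. Where a probe was below background on both arrays of 1 group, the fold is a bound: the bright group's mean against, per array, the higher of the lowest signal among detected probes and the dim probe's own. The bound leaves out the sampling error of the means. The script was tested on simulated data. Figures were drawn with matplotlib 3.10.9 in Python 3.11.15.

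Arrays of 1 group are biological replicates by their labels. In the main fit each p-value rests on the spread within groups pooled over all 12 groups, not on that of the compared arrays alone. An array outside a comparison can therefore change its p-value. With 1 line per label, spread between separately made lines was not measured. Precision is limited by how few arrays there are: the median SE of a difference was 0.129 between 2 groups and 0.183 between 2 effects. Slide and scan date are not given in the sources used here. Same-numbered arrays mostly did not deviate together, with a correlation above 0.1 in 3 of 66 pairs of groups (up to 0.291). What they share beyond the number is not known. Named genes were all members with every probe, up to 4 called genes of smallest p per list and comparison (1 if none was called), and the 5 genes most correlated with AKR1C3 and with AKR1B10, the other member of widest range. The marker genes named come from marker lists under the same rule. Alternatives tried were no background subtraction, the processed values, no filter or detection on all arrays, only the arrays compared, the mean of all kept probes, a replicate block, and leaving out each array.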

Additional observations from a re-analysis of the deposited data

How the results depend on the processing

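For the 14 calls of members between labelled lines and control, the count was 7 with probes detected on all arrays (of 18 tested) and 8 with only the arrays compared, and leaving out 1 array gave 6 to 14. The 18 inhibitor calls numbered 10 with probes detected on all arrays (of 48 tested), where AKR1C2, AKR1C3 and AKR1B10 are not tested, and leaving out 1 array gave 15 to 20. Between lines and between effects the 0 calls became 0 to 2, the 2 being AKR1B10 without NFIL3-labelled DMSO replicate 2, and the 10 calls between inhibitors became 8 to 11. Over 42 member results and 443 settings, 360 kept direction and call, 83 lost the call and 0 turned. Of 140 results of other genes, 1 turned: HDLBP with LY294002 in the NFIL3-labelled line, 0.54, was -0.11 with the mean of all kept probes. The calls of HMOX1 with LY294002 in 3 lines, of AKR1B10 and GCLM in the lines labelled BOP1 and CKS2, and all 8 between LY294002 and SB203580 held under every alternative run. With the replicate number as a block, the counts of member calls were 14, 18, 0, 0 and 10 as without it. It changed no member call, and the genes whose LY294002 effect differed from the NFIL3-labelled line numbered 5 with the block and 17 without it (BOP1), and 22 with it and 36 without it (CKS2). Over the 66 pairs of groups the correlation of same-numbered deviations had a median of -0.00116 (-0.103 to 0.291), above 0.1 in 3 pairs. Gene totals moved by more than 1.5 times in most comparisons. With 1 array left out, the lines against control gave 531 to 992 genes (1624, 1661 and 1716 with all), LY294002 1320 to 2854 (2624, 3114 and 3148), SB203580 499 to 866 (1515 and 1507) and Rapamycin 164 to 341 (924). Under the other alternatives the ranges were 667 to 2111, 1185 to 3454, 478 to 1827 and 0 to 1242. DAPT gave 0 to 40 and SP600125 0 to 7. LY294002 gave 3316 to 5616 genes against SB203580 (5336 and 4784) and 764 to 2271 against Rapamycin (2000). No setting moved the median of all genes by more than 0.02. Signal over background limits AKR1C2, AKR1C3 and AKR1B10, detected on 11, 22 and 12 of 24 arrays, so that their folds are bounds in several comparisons, and 2 arrays per group limit every member.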
